A study of Mus musculus with 5 samples.

Results

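Interferon-activated fibroblasts of the mouse heart were defined as fibroblast barcodes that carried transcripts of the interferon-induced genes Cxcl9, Cxcl10 and Gbp4. A unique molecular identifier (UMI) marks 1 captured transcript. A barcode was a member when mitochondrial transcripts made up at most 10% of its UMIs, when Dcn, Col1a1 and Pdgfra (a proteoglycan, a collagen chain and a growth factor receptor of fibroblasts) summed to at least 5 UMIs, and when Cxcl9, Cxcl10 and Gbp4 summed to at least 5. Barcodes with more than 1 UMI of the endothelial genes Pecam1 and Cdh5 and the leukocyte gene Ptprc, or more than 2 of the macrophage genes C1qa, C1qb and C1qc, were left out. By this rule 668 of 47319 barcodes were members. They were drawn from 9971 fibroblasts under the same limits. The 8012 fibroblasts with no UMI of Cxcl9, Cxcl10 and Gbp4 served as the reference within each library, and the 1291 with 1 to 4 UMIs belonged to neither state. Members were thus chosen by the measured UMI counts of these genes, and the values of the genes are given as a description.

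The hearts came from mice with checkpoint-deficiency myocarditis and from their controls. The control group was labelled Ctla4+/+Pdcd1-/- and comprised 2 libraries (control 1 and control 2) from 4 mice. The disease group was labelled Ctla4+/-Pdcd1-/- and comprised 3 libraries (disease 3, disease 4 and disease 5) from 10 mice. All mice, the controls included, therefore lacked Pdcd1, which encodes the inhibitory receptor PD-1, and the groups differed in the copies of Ctla4, which encodes the inhibitory receptor CTLA-4. In the genotype labels of single libraries the Pdcd number counts upward (Pdcd2-/-, Pdcd3-/-), as does the name of the dye DRAQ5, whereas the design text gives Pdcd1-/- and DRAQ5 for all. Hearts were digested with enzymes and pooled, and cells that took up the DNA dye DRAQ5 and excluded DAPI were sorted, that is, nucleated live cells. Which mice entered which library, their age and the day of collection are not given in the sources used here. The p-values below therefore measure the spread between libraries only, and a difference between genotypes cannot be told apart from one between pools.

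Interferons signal through receptors, Janus kinases and STAT transcription factors. Interferon-gamma, made mainly by T and natural killer cells, acts largely through a STAT dimer at the GAS element, whereas type I interferons act through a STAT and IRF9 complex at the ISRE. Their targets include the guanylate-binding proteins (Gbp genes) and immunity-related GTPases, which attack intracellular vacuoles, the machinery that loads antigen on MHC molecules, and Cxcl9 and Cxcl10, ligands of the receptor CXCR3 that draw activated T cells. Cxcl10 also has NF-kappaB elements and can be induced by tumour necrosis factor. Fibroblasts are the main matrix-producing cells of the heart and can take part in local immune responses through such chemokines.

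The promoter windows of both gate chemokines and of 3 induced genes described below are shown, since the sites through which these pathways are known to act lie in such windows. They are RefSeq sequences of the GRCm38.p6 build, from 250 bases before to 50 after the annotated start, written along the strand of the gene. Capitals mark matches on either strand to GAS (TTCNNNGAA), to an ISRE-like motif (GAAA, any 2 bases, GAAA) and to a kappaB-like motif (GGGA, any base, TT, any base, CC). Of 6 genes looked up, 5 had an entry and Gbp4 had none. The windows lie at chr5:92328030-92328329 (minus strand) for Cxcl9, chr5:92348840-92349139 (minus strand) for Cxcl10, chr3:142620413-142620712 (plus strand) for Gbp2, chr11:58199306-58199605 (plus strand) for Igtp and chr19:34640639-34640938 (plus strand) for Ifit1.
Cxcl9: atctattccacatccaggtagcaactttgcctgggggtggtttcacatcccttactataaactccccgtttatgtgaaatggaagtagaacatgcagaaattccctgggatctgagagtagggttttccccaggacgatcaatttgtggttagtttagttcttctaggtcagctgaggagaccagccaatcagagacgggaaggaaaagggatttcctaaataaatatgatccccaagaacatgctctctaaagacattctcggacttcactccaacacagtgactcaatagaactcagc
Cxcl10: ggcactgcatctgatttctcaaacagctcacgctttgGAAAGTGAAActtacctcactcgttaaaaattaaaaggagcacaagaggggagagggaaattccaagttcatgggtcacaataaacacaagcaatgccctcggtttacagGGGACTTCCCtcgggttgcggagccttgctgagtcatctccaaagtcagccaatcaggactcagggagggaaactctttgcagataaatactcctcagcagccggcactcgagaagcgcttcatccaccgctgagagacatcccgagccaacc
Gbp2: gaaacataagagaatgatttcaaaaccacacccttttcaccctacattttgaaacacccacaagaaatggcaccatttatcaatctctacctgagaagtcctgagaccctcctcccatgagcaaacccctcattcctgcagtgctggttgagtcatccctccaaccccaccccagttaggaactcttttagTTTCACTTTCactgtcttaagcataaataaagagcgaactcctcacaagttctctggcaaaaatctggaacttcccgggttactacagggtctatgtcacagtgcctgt
Igtp: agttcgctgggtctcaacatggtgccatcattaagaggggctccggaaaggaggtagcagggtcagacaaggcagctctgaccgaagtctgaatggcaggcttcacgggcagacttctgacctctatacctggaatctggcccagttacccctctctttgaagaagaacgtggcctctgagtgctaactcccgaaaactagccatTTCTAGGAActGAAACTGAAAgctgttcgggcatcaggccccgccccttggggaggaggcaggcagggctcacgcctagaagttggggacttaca
Ifit1: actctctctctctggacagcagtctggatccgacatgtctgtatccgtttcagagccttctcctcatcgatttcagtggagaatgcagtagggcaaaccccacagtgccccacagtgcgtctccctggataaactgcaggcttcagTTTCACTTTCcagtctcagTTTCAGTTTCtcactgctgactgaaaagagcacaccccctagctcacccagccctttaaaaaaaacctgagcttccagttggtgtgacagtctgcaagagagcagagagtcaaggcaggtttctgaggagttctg
The Cxcl10 window held an ISRE-like match that began 213 bases before the start and a kappaB-like match 103 bases before it. In the Igtp window a GAS match (45 bases before the start) and an ISRE-like match (34 before) lay next to each other without overlap. Gbp2 had 1 ISRE-like match (59 before) and Ifit1 had 2 (104 and 85 before), and none of these letters occurred in the Cxcl9 window. Among all 32851 windows in the table, 8.30% held GAS, 3.44% the ISRE-like and 1.20% the kappaB-like letters. Of the listed Gbp and immunity-related GTPase genes with a window, 11 of 13 held the ISRE-like and 6 of 13 the GAS letters, against 3.99% and 9.55% of the 27025 genes in the table. Of the listed type I interferon response genes, 18 of 32 held the ISRE-like and 6 of 32 the GAS letters. It was 5 of 26 and 7 of 26 for other interferon-gamma targets, and 5 of 19 and 2 of 19 for MHC class I genes. A match is a description of the sequence, and binding was not measured.

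The libraries held 6465 to 11358 barcodes and 24991704 to 55053988 UMIs, and 5590 to 9964 barcodes passed the mitochondrial limit. Members had more UMIs than reference fibroblasts in every library, with medians of 8733 against 6010 in control 1, 7904 against 5901 in control 2, 6482 against 5322 in disease 3, 8282 against 4670 in disease 4 and 10004 against 5626 in disease 5. Disease 4 and disease 5 stood apart from the other libraries in Gsn, an abundant actin-severing protein of fibroblasts, with 10759 and 20361 CPM (counts scaled to a common library total) in reference fibroblasts against 40041 to 42746. Between 86 and 161 barcode sequences were shared by pairs of libraries. Of the members, 38 had a barcode that also occurred in another library, and 0 barcodes were members in 2 libraries. Pdcd1 transcripts were present in all libraries (3.12 to 264 CPM over retained cells). The labels do not say which exons were deleted, so a count at the start of the transcript does not check the deletion, and a single lost copy of Ctla4 cannot be read from these counts.

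Members expressed fibroblast genes at levels near those of the reference, in part because both states were gated on 3 of them. Dcn stood at 16689 to 21022 CPM in members and 18318 to 23331 CPM in reference fibroblasts, and was lower in members of 4 libraries. Pdgfra was lower in members of all 5, at 322 to 379 against 412 to 517 CPM. The median sum of Dcn, Col1a1 and Pdgfra was 137 to 196 UMIs against 118 to 134. Another 18 fibroblast genes that the rule did not use summed to 34957 to 62628 CPM in members and 33240 to 62932 CPM in the reference, and all 18 were detected. Summed markers of other cells were below the fibroblast genes in both states. A list of 14 macrophage genes summed to 56.0 to 612 CPM in members and 94.2 to 337 CPM in the reference, 12 endothelial genes to 217 to 760.1 and 385 to 599 CPM, 14 T and natural killer cell genes to 0 to 217 and 9.11 to 628 CPM, 11 mural cell genes to 75.4 to 242 and 138 to 243 CPM, and 7 mesothelial genes to 0 to 227 and 7.29 to 66.7 CPM. Of 7 dendritic cell genes, Flt3 and Siglech were at 0 in all members, while Fscn1, an actin-bundling gene that fibroblasts also express, made up most of that list and was at 151, 47.8, 84.5, 57.2 and 144 CPM in members against 71.4, 63.8, 43.3, 25.3 and 57.3 CPM in the reference (log2 difference 1.06, SE 0.14). It was higher in members of 4 libraries, and its part in the results was not tested. Every macrophage, endothelial, T cell, mural and mesothelial gene had at least 1 UMI. Scrublet marked 4 members as doublets.

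The cell closest to another type was in disease 3. There, 1 member with 10163 UMIs had a fibroblast sum of 7 and 656 UMIs of Cd74, and it held 1295 of the 1344 MHC class II UMIs of the 17 members of that library (96.4%) and 95.1% of their UMIs of the myeloid genes Tyrobp and Ctss. A second member of disease 3 held 92.6% of the Cxcl9, 89.3% of the Ccl19 and 71.2% of the Gbp2 UMIs. Values of these genes in disease 3 are thus those of single cells. Near the limits of the rule, 82 members had exactly 5 UMIs of the gate genes and 111 fibroblasts had 4. Of the excluded endothelial and leukocyte genes, 121 members had 1 UMI and 27 otherwise eligible cells had 2, and 11 members had a fibroblast sum under 20.

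The share of fibroblasts in the activated state varied widely between the disease libraries and did not separate the genotypes. It was 3.66% in control 1 (108 of 2953, 95% Wilson interval 3.04 to 4.40%), 1.28% in control 2 (17 of 1332, 0.798 to 2.03%), 0.931% in disease 3 (17 of 1826, 0.582 to 1.49%), 20.9% in disease 4 (384 of 1837, 19.1 to 22.8%) and 7.02% in disease 5 (142 of 2023, 5.99 to 8.22%). These intervals cover counting error only. Disease 4 and disease 5 lay above both controls and disease 3 below both, so the groups overlapped. The mean share was 2.47% ± 1.68 (SD, n = 2) in controls and 9.62% ± 10.2 (SD, n = 3) in disease, a difference of 7.15 percentage points (two-sided exact permutation p = 0.6, and the smallest p that the 10 splits allow is 0.1). Without disease 4 the difference was 1.51 points, and without disease 3 it was 11.5 points. Thinned to 2000 UMIs per cell with at least 3 UMIs of the gate genes, which left out 3.52 to 7.40% of the cells, the shares were 1.86, 0.716, 0.748, 15.3 and 4.18% in the same order, against 3.76, 1.35, 0.978, 22.4 and 7.27% of the same cells before thinning.

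**Figure D1:**
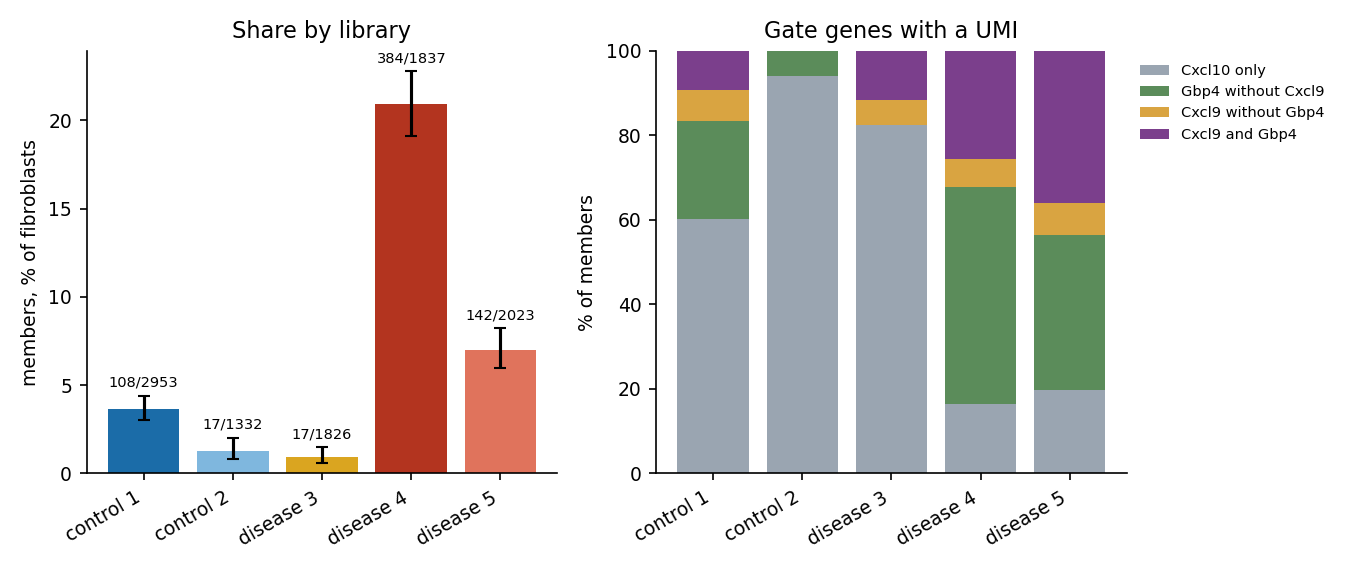
Left, members as a percentage of the fibroblasts of each library, with 95% Wilson intervals and the counts above the bars. Right, members of each library by the gate genes they carried, in percent: disease 4 reached 20.9% of fibroblasts, and members with Cxcl10 alone made up 94.1% of the members of control 2 and 16.4% of those of disease 4.

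Transcripts of Ifng, the interferon-gamma gene, and T and natural killer cells moved with the share. Ifng over all retained cells was at 29.1 CPM in control 1, 1.35 in control 2, 6.73 in disease 3, 107 in disease 4 and 32.0 in disease 5. T and natural killer cells made up 4.76, 1.95, 2.23, 24.2 and 6.59% of the retained cells in that order. Disease 4 was highest and control 2 and disease 3 were lowest in all of these measures, and 5 libraries are too few for a correlation. The members themselves held 3, 0, 0, 6 and 1 UMIs of Ifng. Ifnb1, a type I interferon gene, had 1, 0, 6, 28 and 3 UMIs over all retained cells. The part of these cells in the share was not tested.

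The state was seen in other cells of the same hearts at unequal rates. Under the same limit of 5 UMIs of the gate genes, 589 of 4773 endothelial cells (12.3%) were activated, with 13.7% in control 1, 5.83% in control 2, 5.47% in disease 3, 29.4% in disease 4 and 12.8% in disease 5. In each library this was above the fibroblast share, although endothelial cells were shallower (median 3549 UMIs over all libraries, against 5398 to 6146 in fibroblasts). Among B cells 2 of 758 (0.264%, median 2542 UMIs) passed the limit, among T cells 35 of 2501 (1.40%, median 3841 UMIs) and among mural cells 4 of 185 (2.16%, median 2884 UMIs). Schwann cells, which ensheath nerves, were few but had a higher share, 5 of 62 (8.06%, Wilson interval 3.49 to 17.5%, median 2511 UMIs), with 3 of the 5 in disease 4. Macrophages and dendritic cells were not examined here. B cells, which should lack the fibroblast program, serve here as a gauge of free RNA. In disease 3, 1 of 91 B cells (1.10%) passed, no less than the 0.931% of fibroblasts, and in control 2 it was 0 of 187, which allows a share of up to 1.60%. In control 1 it was 0 of 61, which allows up to 4.92%, above the 3.66% of its fibroblasts. At this number of B cells the fibroblast shares of these 3 libraries could not be told apart from that background. In disease 4 (1 of 300 B cells, 0.333%) and disease 5 (0 of 119, which allows up to 2.52%) the fibroblast shares were above it. These comparisons do not allow for the lower depth of the B cells. Thinned to 2000 UMIs per cell, 0 of 615 B cells had at least 3 UMIs of the gate genes.

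The members were not alike in the gate genes. Most had Cxcl10 (83.8 to 100% of the members of a library), and 207 of 668 (31.0%) had Cxcl9. Gbp4 was found in 32.4% of the members of control 1, 5.88% of control 2, 11.8% of disease 3, 76.8% of disease 4 and 72.5% of disease 5, and Cxcl9 in 16.7, 0, 17.6, 32.3 and 43.7%. Members with Cxcl10 as their only gate gene made up 60.2, 94.1, 82.4, 16.4 and 19.7%. Thus in control 2 and disease 3, 16 and 14 of the 17 members were called on Cxcl10 alone, whereas in disease 4 and disease 5 most members carried Cxcl9 or Gbp4. The sum of the gate genes was 10 or more in 60.6% of all members and reached 256 in 1 cell.

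In control 2 the data went against the label in part. Psmb9, an immunoproteasome subunit gene induced by interferon, was at 27.3 CPM in members and 31.8 CPM in the reference of control 2. In the other libraries it was at 294 against 50.2 CPM (control 1), 219.6 against 35.4 (disease 3), 545 against 100.2 (disease 4) and 509.6 against 50.2 (disease 5). Other interferon-induced genes, such as Ifit1 below, were higher in the members of control 2 too. Members of control 2 also had the highest level of Il6, a cytokine downstream of NF-kappaB, with 375 CPM against 25.8 CPM in their reference, and of the neutrophil chemokine Cxcl1, with 4505 against 1608 CPM. These levels lay in few cells. The 10 members with 5 to 9 gate UMIs were at 23.2 CPM of Il6 and 1811 CPM of Cxcl1. The 3 with 10 to 19 UMIs were at 410.4 and 8731 CPM, and the 4 with 20 or more at 1404 and 9026 CPM. Counts and medians without control 2 and disease 3 are given beside the main groups of results below.

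Against the reference of the same library, members had higher levels of nearly all interferon-response genes that could be tested. Of 11056 genes tested with the library as a block, 720 (6.51%) passed an adjusted p of 0.05 in edgeR's quasi-likelihood test, 474 higher (4.29%) and 246 lower (2.23%) in members. Because this is the contrast by which the members were chosen, the counts are descriptive and no p-value is given. The log2 differences below have standard errors over libraries, and the median over all tested genes was -0.03. Among markers of other cells, 4 of 8 mural (median -0.70), 2 of 3 neutrophil (-2.33), 2 of 7 T and natural killer cell (-0.78), 1 of 12 macrophage (-0.36) and 1 of 2 B cell genes (-1.06) passed as lower in members, and 1 of 1 dendritic cell gene (Fscn1) as higher. The neutrophil list summed to 0 to 25.1 CPM in members and 8.72 to 57.6 CPM in the reference, and the part of these markers in the results was not tested. Over all genes, 423 passed without disease 4 and 983 without control 2 and disease 3.

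The Gbp and immunity-related GTPase genes differed most: 17 of 18 tested were higher and none lower, with a median log2 difference of 2.87. Gbp2 was at 798, 116, 557, 2311 and 1488 CPM in the members of control 1 to disease 5 and at 86.4, 61.5, 68.7, 224 and 86.8 CPM in the reference, a log2 difference of 3.17 (SE 0.23). It was higher in members of all 5 libraries, least in control 2. Ifi47, an immunity-related GTPase, was at 356, 41.0, 177, 981 and 658 CPM against 21.5, 6.02, 6.76, 79.2 and 16.0 CPM (4.26, SE 0.22). In control 2 and disease 3 this rested on 1 and 3 cells, since the 16 and 14 members with Cxcl10 alone were at 7.41 and 0 CPM against 5.64 and 6.82 CPM in the reference. Gbp10 differed by 5.25 (SE 0.25). For Tgtp2, Igtp and Gbp6 the log2 differences were 3.46, 2.95 and 3.07.

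Other targets of interferon-gamma (25 of 27 tested higher, none lower, median 1.49) included Cd274, which encodes the PD-1 ligand PD-L1. Cd274 stood at 53.4, 34.1, 84.5, 172 and 70.9 CPM in members and 6.45, 4.32, 4.02, 12.6 and 6.47 CPM in the reference (3.50, SE 0.17), and each member value lay above all reference values. In control 2, however, all Cd274 UMIs of the members came from 1 cell, since the 16 members with Cxcl10 alone had 0 CPM. Serpina3f and Serpina3g, protease inhibitors, differed by 5.53 (SE 0.27) and 4.46 (SE 0.28), and Il18bp, a soluble trap of interleukin-18, by 3.31 (SE 0.20). Type I interferon response genes followed (33 of 35 higher, none lower, median 1.56). Ifit1, which binds foreign RNA caps, was at 288, 143, 118, 421 and 198 CPM against 35.3, 24.9, 23, 55.0 and 18.5 CPM (2.98, SE 0.14). Members were above the reference in each library, control 2 included. Zbp1, a sensor of left-handed nucleic acid, differed by 3.16 (SE 0.20), and the antiviral genes Rsad2 and Isg15 by 2.82 (SE 0.23) and 1.99 (SE 0.11).

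Of the receptor and kinase genes of the pathway (7 of 15 higher, none lower, median 0.38), the feedback inhibitor Socs1 was higher by 1.32 (SE 0.22) and Stat2 by 0.84 (SE 0.12), whereas Ifngr1, a chain of the interferon-gamma receptor, gave -0.15 (SE 0.12) and the kinase gene Jak1 0.27 (SE 0.11), neither past the threshold. Genes of MHC class I presentation were higher in 20 of 22 cases (none lower, median 1.64). Among them H2-Q7, a nonclassical class I molecule, was at 514, 13.7, 177, 472 and 953 CPM against 48.3, 6.93, 11.4, 87.1 and 49.2 CPM (3.35, SE 0.23). The peptide transporter gene Tap1 differed by 2.51 (SE 0.21), and the immunoproteasome subunit gene Psmb9 by 2.57 (SE 0.21). MHC class II genes were higher in 6 of 7 cases (median 2.62). H2-Ab1 was at 166, 13.7, 1301, 404 and 507 CPM against 53.9, 20.5, 26.4, 107 and 33.3 CPM (2.98, SE 0.41). It was lower in the members of control 2, and the 1301 CPM of disease 3 came almost wholly from the single cell named above. Without these 2 libraries 18 of 19 GTPases (median 2.93), 27 of 28 other interferon-gamma targets (1.57), 36 of 38 type I response genes (1.69), 22 of 22 MHC class I genes (1.81) and 6 of 7 class II genes (1.98) were higher.

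**Figure D2:**
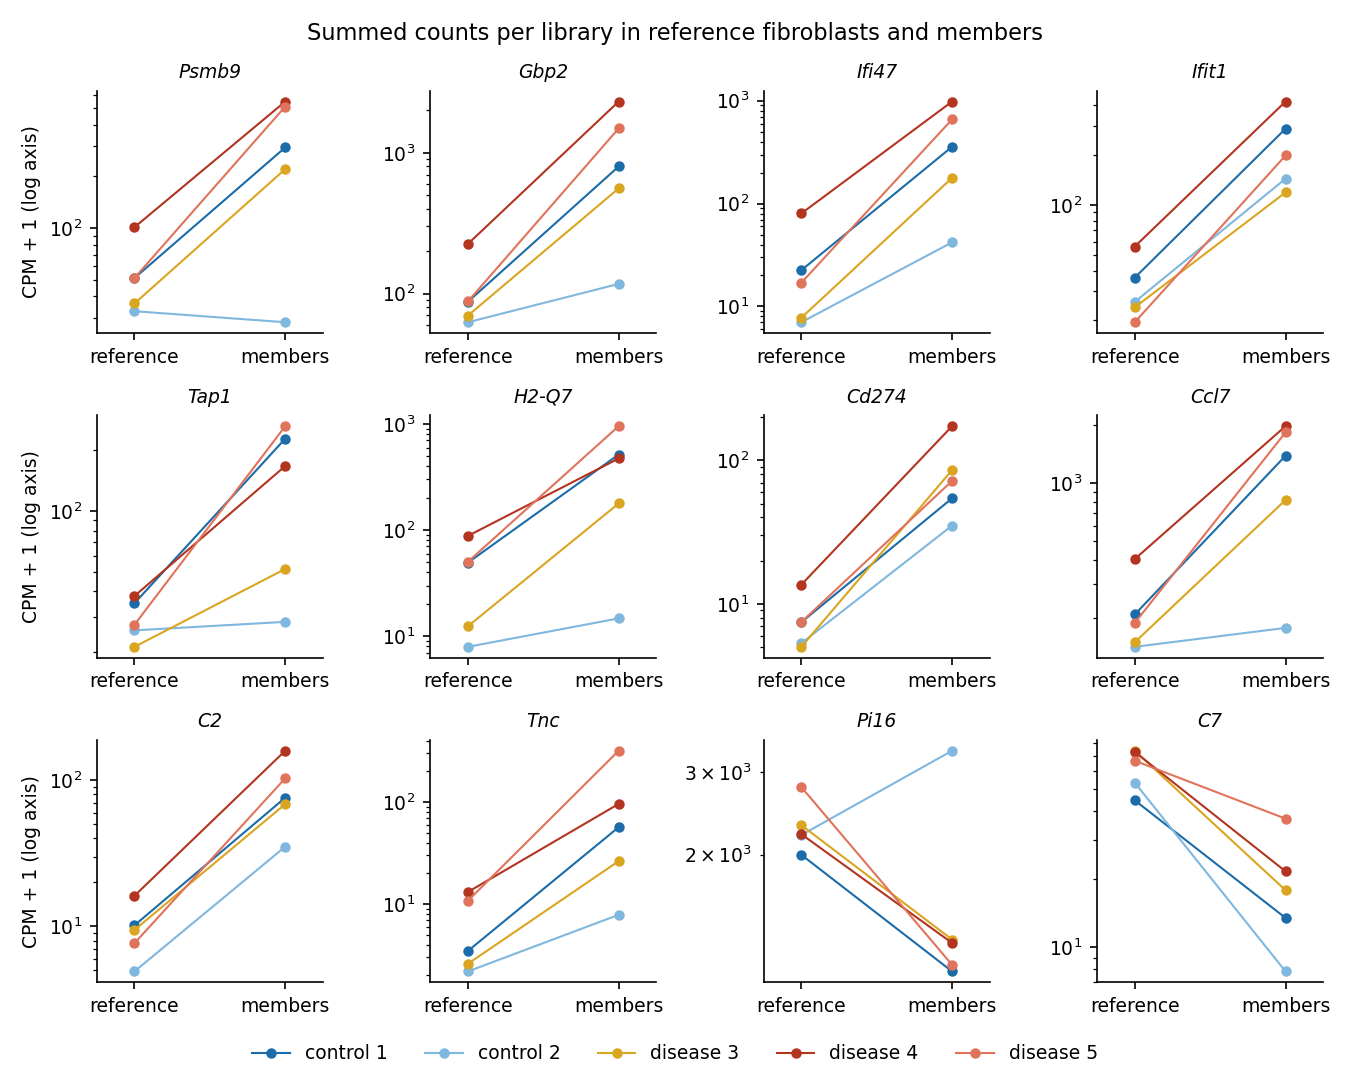
Level of 12 genes (CPM + 1, log axes) in reference fibroblasts and members of each library, joined by a line. Most lines rise, whereas the line of control 2 is near flat for Psmb9 and Tap1, and the line of Pi16 falls in all libraries other than control 2.

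Chemokine and cytokine genes were higher in 16 of 24 cases and lower in none (median 1.30). Ccl7, which attracts monocytes, was at 1390, 177, 819, 1980 and 1839 CPM in members and 208, 141, 149, 404 and 188 CPM in the reference (2.41, SE 0.22), with control 2 again the lowest. Ccl19, the ligand of CCR7 on dendritic and naive T cells, differed by 3.57 (SE 0.34) but was at 0 in the members of control 2, and Cxcl5, a neutrophil chemokine, by 2.78 (SE 0.19). Vcam1 and Icam1, adhesion molecules for leukocytes, differed by 1.35 (SE 0.16) and 0.93 (SE 0.11). Among the NF-kappaB genes (9 of 15 higher, none lower, median 0.75) Birc3, an inhibitor of cell death, was higher by 1.17 (SE 0.17). Complement genes moved both ways (7 higher and 2 lower of 11, median 1.31). C2, the protease of the classical convertase, differed by 3.39 (SE 0.16), and Cfb, its counterpart of the alternative pathway, by 2.95 (SE 0.20). C7, a part of the membrane attack complex, was lower in all 5 libraries, with 12.5, 6.83, 16.9, 20.7 and 36.1 CPM against 43.7, 52.5, 73.1, 72.2 and 65.9 CPM (-1.50, SE 0.18).

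Matrix and identity genes differed less. Of 40 matrix genes 6 were higher and 5 lower (median 0.19). Tnc, the adhesion-modulating matrix protein tenascin C that marks injured tissue, was an exception, at 55.6, 6.83, 25.3, 94.7 and 317 CPM against 2.46, 1.18, 1.59, 12.1 and 9.76 CPM (4.18, SE 0.26). Timp1, an inhibitor of matrix proteases, differed by 2.43 (SE 0.26). Of 18 fibroblast identity genes 2 were higher, among them Ly6a (1.35, SE 0.14), and 5 were lower, among them Abca8a (-0.47, SE 0.09) and Htra3 (-0.46, SE 0.10). Genes of adventitial fibroblasts, which surround larger vessels, were lower in 3 of 13 cases and higher in 1 (median -0.29). Pi16, the best known of them, was at 1127, 3331, 1318, 1296 and 1164 CPM in members and 1998, 2202, 2311, 2211 and 2786 CPM in the reference (-0.63, SE 0.16). It was lower in 4 libraries and higher in control 2. Ly6c1 was the adventitial gene that was higher (1.49, SE 0.18), and it is also induced by interferons.

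Outside the lists the largest falls were those of Cytl1 (-1.82, SE 0.35), a small secreted protein, the protease gene Htra4 (-1.53, SE 0.19), the placental growth factor gene Pgf (-1.38, SE 0.20) and the stanniocalcin gene Stc2 (-1.38, SE 0.19). Htra4 was at 22.7, 41.0, 33.8, 28.6 and 13.5 CPM against 47.7, 92.2, 61.5, 69.8 and 79.7 CPM, lower in members of each library. Among immediate early genes, which respond to stimulation and to tissue digestion, 3 of 22 were higher and 6 lower (median -0.13). Without control 2 and disease 3, 1 of these genes was higher and 10 lower, 7 adventitial genes were lower, and 14 matrix genes were higher and 3 lower. With members and reference matched for depth, which left 7564 genes tested, 376 were higher and 107 lower, and the medians were 2.96 for the GTPases, 1.69 for type I response genes and -0.66 for adventitial genes. The immediate early genes then had 4 higher and 1 lower, so their balance turned with the setting.

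Fibroblasts with few gate UMIs already differed from those with none. With 0, 1 to 2, 3 to 4, 5 to 9, 10 to 19 and 20 or more UMIs of the gate genes, Gbp2 in disease 4 was at 235, 531, 994, 1613, 1766 and 2718 CPM, and in disease 5 at 86.7, 319.8, 857, 935, 1214 and 1880 CPM. Levels in these 2 libraries were higher in each successive class. In control 1 the values were 83.2, 204, 605, 698, 499.7 and 1249 CPM, with 1 step down, and in control 2 they stayed at or below 224 CPM in all classes. Disease 3 was at 69.1, 106, 246, 104, 148 and 1988 CPM, lower at 5 to 9 than at 3 to 4 UMIs. B2m, the light chain of MHC class I, went from 2685 to 7788 CPM over the same classes in disease 4, from 1166 to 6581 CPM in disease 5 and from 1455 to 4722 CPM in control 1. In disease 3 it went from 1058 to 3108 CPM. Control 2 was at 856, 1241, 999, 987, 1866 and 1471 CPM, not in step with the classes. These are means over the cells of a class, and the distribution over single cells was not examined. The classes of control 2 and disease 3 beyond 10 UMIs held 3 to 5 cells each.

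**Figure D3:**
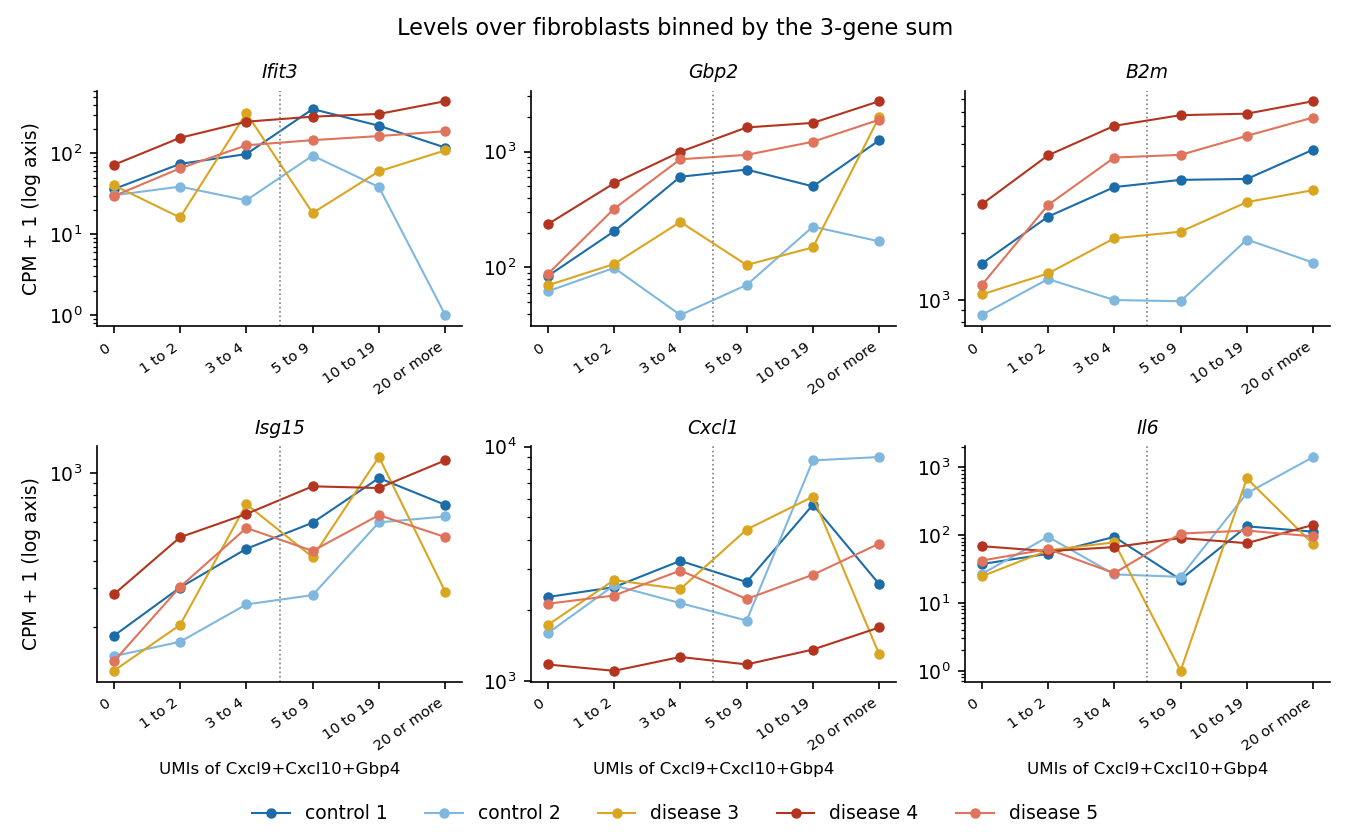
Level of 6 genes (CPM + 1, log axes) over fibroblasts of each library in classes of their summed Cxcl9, Cxcl10 and Gbp4 UMIs. The dotted line marks the limit for members. In control 1, disease 4 and disease 5, Gbp2 and B2m are higher in the classes with 1 to 2 UMIs than in those with 0, and in control 2 Cxcl1 and Il6 are highest in the classes of 10 or more, which hold 3 and 4 cells.

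Members with Cxcl10 as the only gate gene had a weaker form of the same profile, with more of the stimulation genes. This split was chosen after the composition of the members had been seen, and since the gate genes define it, its values are descriptive. Against the reference, 404 of 10295 genes passed the threshold (3.92%), 299 higher (2.90%) and 105 lower (1.02%). They included 15 of 15 GTPases (median 1.65), 25 of 35 type I response genes (1.15) and 17 of 22 MHC class I genes (0.93), with a median of -0.07 over all genes tested. Compared with members that had Cxcl9 or Gbp4 in control 1, disease 4 and disease 5, where both kinds had at least 10 cells, 272 of 5456 genes (4.99%) passed, 122 higher (2.24%) and 150 lower (2.75%) in members with Cxcl10 alone.

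Lower were 13 of 16 GTPases (median -1.54), 17 of 21 MHC class I genes (-0.94), 6 of 6 MHC class II genes (-1.76) and 7 of 10 complement genes (-0.88), but 6 of 34 type I response genes (-0.30). Gbp2 was at 299, 931 and 329 CPM in the Cxcl10-only members of control 1, disease 4 and disease 5 and at 1350, 2267 and 1559 CPM in the others (-1.85, SE 0.15). Ifit1 was at 248, 499 and 192 CPM against 315, 361 and 180.4 CPM (0.11, SE 0.16). The Cxcl10-only members were thus lower in Gbp2 in all 3 libraries and not separated in Ifit1. Tnc was nearly absent from the Cxcl10-only members, at 0, 2.18 and 4.27 CPM against 119.8, 98.5 and 344 CPM.

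Higher in the Cxcl10-only members were 11 of 22 immediate early genes and none lower (median 0.50), and 3 of 20 chemokine and cytokine genes against 7 lower. Il6 was at 125, 170.1 and 214 CPM against 24.5, 94.4 and 82.5 CPM (1.27, SE 0.21), and Cxcl1 at 5358, 2368 and 5928 CPM against 2164, 1272 and 2488 CPM (1.15, SE 0.09). Both were higher in the Cxcl10-only members of all 3 libraries. The metal-binding metallothionein gene Mt1 was at 3819, 3035 and 8021 CPM against 1152, 1467 and 1954 CPM (1.60, SE 0.13). The Cxcl10-only members were shallower (median 8180, 7384 and 8238 UMIs) than the others (10338, 8370 and 10285 UMIs). The part of depth in this split was not tested.

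**Figure D4:**
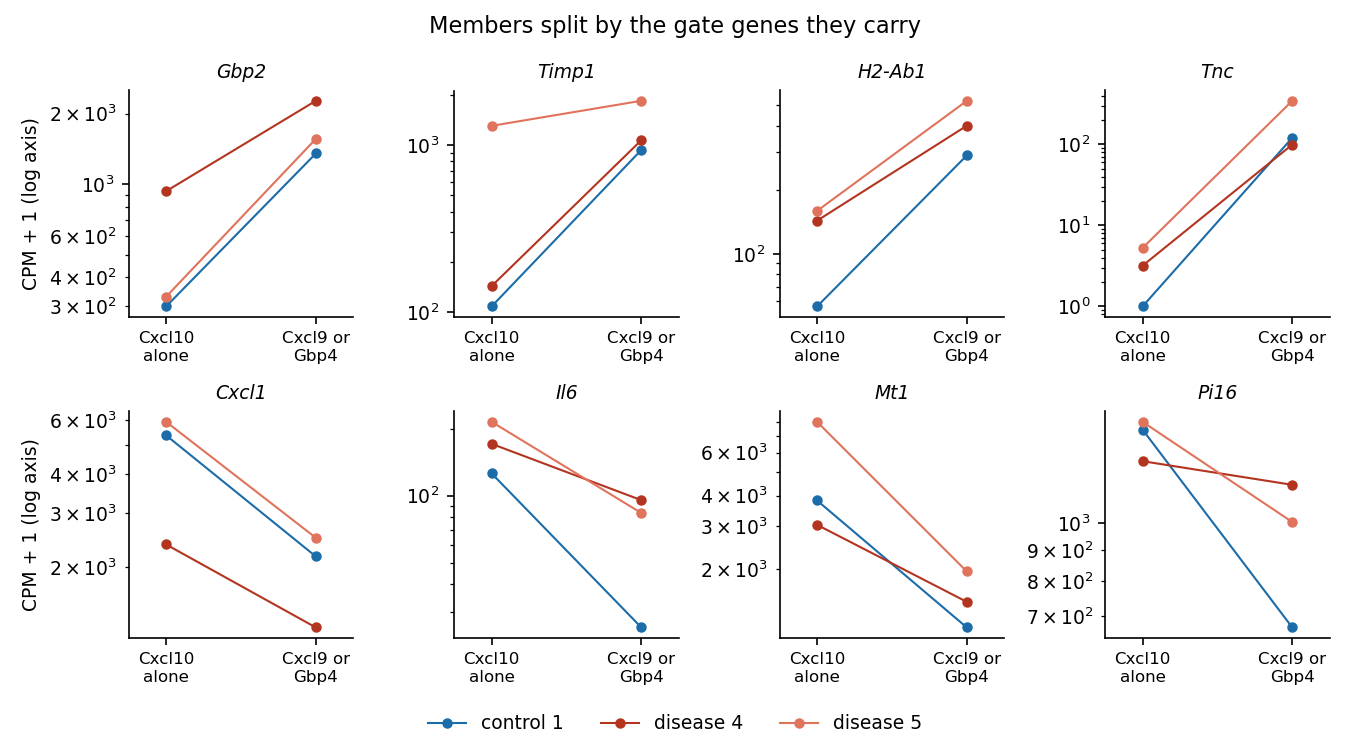
Level of 8 genes (CPM + 1, log axes) in members with Cxcl10 as the only gate gene and in members with Cxcl9 or Gbp4, in the 3 libraries with at least 10 cells of both kinds. Gbp2, Timp1, H2-Ab1 and Tnc are lower and Cxcl1, Il6, Mt1 and Pi16 higher in the Cxcl10-only members of all 3 libraries.

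Split by Cxcl9 instead, 36 of 7051 genes (0.511%) passed the threshold in the same 3 libraries, 22 higher (0.312%) and 14 lower (0.199%) in members without Cxcl9. This split too uses a gate gene, since members without Cxcl9 reached the limit through Cxcl10 or Gbp4, and its values are descriptive. MHC class II genes were lower in 5 of 6 cases (median -1.17, against 0.01 over all genes). Markers of other cells were lower too, with 1 of 5 endothelial genes past the threshold (median -0.96) and 0 of 2 T and natural killer cell genes (median -1.36, 1 at an unadjusted p under 0.05 in edgeR, 0 in DESeq2), and their part in the difference was not tested. Cd74, the invariant chain of class II, was at 392, 1012 and 652 CPM without and 1393, 1705 and 1914 CPM with Cxcl9 (-1.34, SE 0.15). In edgeR 0 of 17 GTPases passed (median -0.09, 3 at an unadjusted p under 0.05, 0 in DESeq2). Timp1 was lower (-1.51, SE 0.32), and Tmem100, an endosomal membrane protein, was higher (2.14, SE 0.34), as was Il6 (1.19, SE 0.21). No gene passed after matching for depth (355 at an unadjusted p under 0.05) or without disease 5 (346), while 72 passed without control 1 and 111 without disease 4.

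Between the genotypes, the genes that were lower in disease members were mostly lower in the reference fibroblasts of disease too. Of 8328 genes tested, 491 (5.90%) passed an adjusted p of 0.05 in edgeR, 9 higher (0.108%) and 482 lower (5.79%) in disease. In edgeR 0 of 17 GTPases passed (median log2 difference 1.32, 6 at an unadjusted p under 0.05, 0 in DESeq2), as did 0 of 37 type I response genes (median 0.44, 7 unadjusted, 1 in DESeq2). For other interferon-gamma targets it was 0 of 27 (median 0.70, 9 unadjusted, 0 in DESeq2) and for MHC class II genes 0 of 7 (median 2.76, 6 unadjusted, 0 in DESeq2), and the median of all genes was 0.03. These counts depended on the libraries and the filter. Without control 2 and disease 3, 3 of 18 GTPases and 2 of 7 MHC class II genes were higher in disease (medians 1.09 and 1.24). With every gene of at least 1 count, 13 of 20 GTPases, 4 of 41 type I response genes and 7 of 11 class II genes were higher. Markers of other cells moved in that setting too, with 6 of 7 mesothelial and 3 of 6 Schwann cell genes lower in disease (medians -3.14 and -4.39). Without control 2 and disease 3 the medians of these markers were -3.57 and -2.76. Their part in the differences was not tested. At the level of single genes, Gbp2 was at 773 and 117 CPM in the members of the controls and at 569.5, 2158 and 1406 CPM in disease (1.58, SE 0.70, edgeR adjusted p = 0.31). Control 1 lay above disease 3, so the groups overlapped. Isg15 was at 791 and 406 against 621, 997 and 535 CPM (0.25, SE 0.36, edgeR adjusted p = 0.79).

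Several of the lower genes differed by more than an order of magnitude. H2afj, a replacement histone gene, was at 114 and 82.6 CPM in control members and at 0, 0.921 and 1.34 CPM in disease (-6.51, SE 0.43, edgeR adjusted p = 2.6e-04). In reference fibroblasts it was at 122 and 112 against 3.59, 0.617 and 3.08 CPM, so that both states showed the same separation. Cebpd, a transcription factor of the acute phase, was at 785 and 1371 against 34.5, 25.5 and 54.9 CPM (-4.78, SE 0.41, edgeR adjusted p = 5.8e-04), and the splicing factor gene Snrpf fell by 5.50 (SE 0.41, edgeR adjusted p = 5.4e-04). Of the 474 lower genes that were also measured in the reference, 466 (98.3%) were lower in all 3 disease references than in both control references, a pattern found in 28.7% of all 11056 genes. Of the 8 higher genes measured there, 4 (50.0%) were higher in all 3 disease references, as were 2538 of all 11056 genes.

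The lower genes included Ifngr2 and Ifnar2, which encode receptor chains for interferon-gamma and type I interferons. Ifngr2 was at 54.9 and 41.3 CPM in control members and at 8.63, 9.21 and 13.4 CPM in disease (-2.23, SE 0.36, edgeR adjusted p = 0.0082), with 43.7 and 38.2 against 8.77, 11.7 and 12 CPM in the reference. Ifnar2 was at 242 and 145 against 77.7, 42.7 and 63.6 CPM (-1.84, SE 0.34, edgeR adjusted p = 0.015). The groups did not overlap for either gene in members or in the reference. The NF-kappaB inhibitor gene Nfkbia, itself a target of NF-kappaB, was at 1105 and 1212 against 440.1, 157 and 171 CPM (-2.29, SE 0.41, edgeR adjusted p = 0.013), and the immediate early gene Atf3 at 941 and 1150 against 207, 161 and 160.1 CPM (-2.60, SE 0.25, edgeR adjusted p = 8.9e-04). Cxcl14 and Cxcl12, chemokines that fibroblasts make without stimulation, fell by 2.93 (SE 0.31) and 1.74 (SE 0.37), with edgeR adjusted p = 0.0012 and 0.026. The calls of Ifngr2, Ifnar2, Nfkbia and Cxcl12 were each lost without control 1, without disease 4 and without disease 5 (edgeR adjusted p from 0.053 to 0.33), that of Nfkbia also without control 2 (edgeR adjusted p = 0.057).

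The higher genes in disease were few. Wisp2, a matricellular protein of the CCN family, was at 48.4 and 20.7 CPM in control members and at 155, 124 and 289 CPM in disease (2.26, SE 0.49, edgeR adjusted p = 0.029), and its reference values separated too, with 73.6 and 82.7 against 164, 199 and 142 CPM. Cd44, the hyaluronan receptor, was at 16.5 and 13.8 against 60.4, 51.3 and 56.3 CPM (1.76, SE 0.35, edgeR adjusted p = 0.019). In the reference Cd44 was at 16.2 and 11.6 against 16.1, 27.0 and 19.6 CPM, where the groups overlapped. Ch25h, which makes 25-hydroxycholesterol and is induced by interferon, was at 18.7 and 34.4 against 69.0, 71.8 and 54.9 CPM (1.54, SE 0.37, edgeR adjusted p = 0.044) and overlapped in the reference. The calls of these genes were lost in 6 to 9 of 15 alternatives, among them those without control 1 (edgeR adjusted p = 0.18, 0.26 and 0.47). The number of genes past the threshold fell to 55 without control 1, 313 without control 2, 158 without disease 4 and 115 without disease 5. It was 530 without control 2 and disease 3.

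Whether the change from reference to member differed between genotypes was tested directly. Of 12054 genes, 9 (0.0747%) passed, 1 with a more positive change in disease (0.00830%) and 8 with a more negative one (0.0664%), and 513 had an unadjusted p under 0.05. In edgeR 0 of 20 GTPases (median 0.49, 5 at an unadjusted p under 0.05), 0 of 39 type I response genes (0.14, 6 unadjusted) and 0 of 22 MHC class I genes (0.49, 9 unadjusted) passed, and 0 of each in DESeq2, against a median of 0.02 over all genes. Of MHC class II genes 0 of 9 passed (median 2.26, 5 unadjusted, 0 in DESeq2), but 4 of 10 did without control 2 and disease 3 (median 1.08) and 4 of 11 with every gene of at least 1 count. With depth matched, the medians were -0.11 for the GTPases, 0.01 for class I and 0.62 for class II. A count of 0 here does not show that the changes were alike.

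Ly6c1, a surface protein of adventitial fibroblasts and of the interferon response, went from 219.8 to 417 CPM and from 176 to 264 CPM between reference and members in the controls. In disease it went from 279 to 632, from 431 to 1994 and from 339.7 to 1484 CPM, a difference in log2 change of 1.11 (SE 0.23, edgeR adjusted p = 0.045). The change was upward in all libraries and largest in disease 4 and disease 5. The call was lost in 7 of 17 alternatives: without control 2 or without disease 4 (edgeR adjusted p = 0.057 in both), with a limit of 3 UMIs of the gate genes (0.91, edgeR adjusted p = 0.63), with a mitochondrial limit of 5% (edgeR adjusted p = 0.19), without marked doublets (edgeR adjusted p = 0.054), with depth matched (0.68, edgeR adjusted p = 0.92) and in DESeq2 (adjusted p = 1.0). Igfbp5, which binds insulin-like growth factors, went from 78.9 to 138 and from 64.2 to 85.6 CPM in the controls and from 123 to 51.3, 63.1 to 14.5 and 73.7 to 22.4 CPM in disease (-2.59, SE 0.28, edgeR adjusted p = 2.1e-06). It was higher in members of both controls and lower in members of all 3 disease libraries, but in control 1 the members with Cxcl10 alone were at 37.7 CPM, below the reference, and the other members at 252 CPM. The call was lost with a limit of 10 UMIs of the gate genes (-0.77) and with a mitochondrial limit of 5% (-1.53). Inmt, a methyltransferase, was level in control 1 (70.0 and 70.2 CPM) and went from 118 to 207 CPM in control 2 and from 172 to 68.4, 139 to 43.9 and 96.3 to 19.6 CPM in disease (-2.15, SE 0.30, edgeR adjusted p = 1.5e-04), a call lost with depth matched (-1.26, edgeR adjusted p = 0.62). The lipid carrier gene Apoe went from 2093 to 2938 and 2302 to 5126 CPM in controls and from 3226 to 3794, 1932 to 1518 and 2124 to 898 CPM in disease, up in disease 3 as in the controls (-1.28, SE 0.23, edgeR adjusted p = 0.011), a call lost in DESeq2 (adjusted p = 1.0). Gsn gave -0.60 (SE 0.09, edgeR adjusted p = 8.6e-04), a call that was lost in 6 of 17 alternatives, with edgeR adjusted p = 0.05 without control 1, 0.21 without control 2, 0.095 without control 2 and disease 3, 0.73 with a limit of 10 UMIs and 0.06 with depth matched, and an adjusted p of 1.0 in DESeq2. Markers of other cells moved with these differences. Of 7 mesothelial genes tested, 1 passed with a more negative change in disease, 6 had an unadjusted p under 0.05 in edgeR and the median was -3.12. Of 4 Schwann cell genes 0 passed (4 unadjusted, 0 in DESeq2, median -4.85), and of 14 T and natural killer cell genes 1 passed with a more negative change (5 unadjusted, median -1.55). The mesothelial list summed to 227 CPM in members and 41.7 CPM in the reference of control 1, 0 and 7.29 in control 2, 8.38 and 66.7 in disease 3, 29.9 and 30.8 in disease 4 and 1.97 and 12.3 in disease 5. The Schwann cell list was at 95.3 and 29.7 CPM in control 1, with 0 to 26.9 CPM in members and 29.9 to 55.8 CPM in the reference of the others. Only in control 1 did members exceed the reference in both lists. There, 1.85% of members had 3 or more of the 221 mesothelial UMIs, and 0.926% had 3 or more of the 93 Schwann cell UMIs. The part of mesothelial, Schwann, T and natural killer cells in the differences was not tested. The number of genes passing was 82 without control 1, 26 without control 2, 14 without disease 3, 43 without disease 4 and 14 without disease 5, and 55 without both control 2 and disease 3.

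Endothelial cells gave the largest number of activated cells among the other classes examined, and the change from reference to activated was compared between both cell types within libraries. The endothelial cells were gated on Pecam1 and Cdh5 and split by the same 3 genes (589 activated and 1933 reference cells). Of 10156 genes tested, 222 (2.19%) differed in their change, 154 with a more positive log2 change in fibroblasts (1.52%) and 68 with a more positive one in endothelium (0.670%). With relative log expression factors in place of TMM these were 232 and 56. Without control 1, 79 genes passed, without disease 4 112 and without disease 5 127, and without control 2 and disease 3 there were 210.

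Where interferon genes passed the test, the change was the larger one in fibroblasts, but most did not pass. More positive in fibroblasts were 5 of 19 GTPases (median difference 0.81), 15 of 37 type I response genes (0.68), 10 of 22 MHC class I genes (0.90) and 4 of 10 complement genes (1.48), and 0 genes of these lists passed with a more positive change in endothelium. Other interferon-gamma targets had 4 of 28 (0.47) and MHC class II genes 0 of 7 (0.88, 1 at an unadjusted p under 0.05, 0 in DESeq2). Without control 2 and disease 3, 1 GTPase, 1 type I response gene and 1 other interferon-gamma target passed with a more positive change in endothelium, and the class II median was -0.09. With no filter on low counts, 10 of 20 GTPases passed toward fibroblasts and 1 toward endothelium. The median over all genes was -0.04. Markers of other cells moved in the same test. Of 10 mural cell genes, 3 had a more positive change in fibroblasts (median 0.40, 2 in DESeq2), and of 9 cardiomyocyte genes 2 had a more positive change in endothelium (median -1.03, 7 at an unadjusted p under 0.05 in edgeR, 1 in DESeq2). The mural list summed to 893 to 2395 CPM in reference and 431 to 787 CPM in activated endothelium, lower in activated cells of every library, against 138 to 243 and 75.4 to 242 CPM in fibroblasts. The cardiomyocyte list was at 823 to 1294 and 811 to 1733 CPM in endothelium and at 51.1 to 81.3 and 16.8 to 55.4 CPM in fibroblasts. The part of these markers in the differences was not tested. Ifi47 started from unlike levels: in endothelium it went from 94.0 to 201, 76.4 to 139, 60.2 to 92.0, 109.9 to 425 and 93.7 to 289 CPM in control 1 to disease 5, whereas in fibroblasts it went from 21.2 to 351, 5.99 to 39.5, 7.28 to 176, 88.1 to 1037 and 17.4 to 690.5 CPM, where the values of control 2 and disease 3 rest on the 1 and 3 members named above. The difference in log2 change was 2.91 (SE 0.30, edgeR adjusted p = 1.3e-06). The reference level was higher in endothelium in every library.

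Other genes were likewise higher in reference endothelium. H2-Q6, a nonclassical MHC class I gene, was at 188 to 396 CPM in reference endothelium and at 2.61 to 68.9 CPM in reference fibroblasts, and changed more in fibroblasts by 2.62 (SE 0.28, edgeR adjusted p = 2.0e-06). Rsad2 was at 199.7 to 310.0 CPM in reference endothelium and at 5.40 to 14.0 CPM in reference fibroblasts (1.75, SE 0.26, edgeR adjusted p = 3.0e-04). For Ifit1, at 52.0 to 70.2 against 20 to 61.1 CPM and higher in the reference fibroblasts of disease 4, the difference was 1.64 (SE 0.22, edgeR adjusted p = 7.2e-05). H2-K1, a classical class I gene, gave 1.14 (SE 0.25, edgeR adjusted p = 0.012), a call lost without control 1 (edgeR adjusted p = 0.15).

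**Figure D5:**
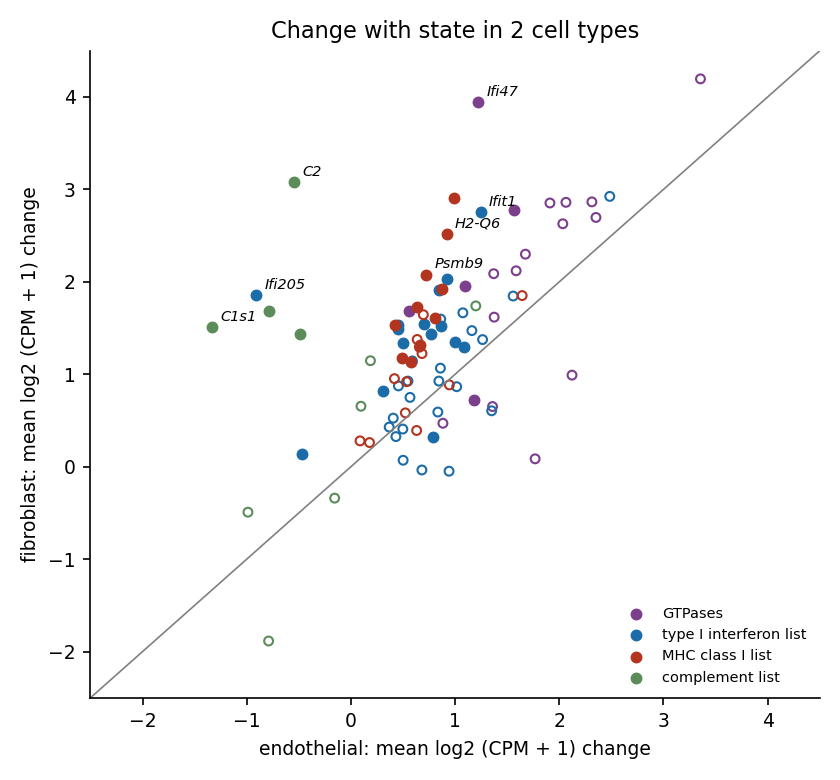
Mean change over 5 libraries from reference to activated cells, as a difference of log2 (CPM + 1), in endothelial cells (horizontal axis) and fibroblasts (vertical axis) for 88 tested genes of 4 lists. Filled points passed the test of the difference (34 genes), and 70 of 88 points lie above the line of equal change.

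Some of the other genes, such as Ccl2 and C1s1, were hardly present in endothelial cells. Ccl2, a monocyte chemokine, went from 206 to 1372, 209 to 428, 168 to 595, 437 to 1855 and 229 to 1138 CPM in fibroblasts and stayed between 4.80 and 30.9 CPM in endothelium (2.32, SE 0.34, edgeR adjusted p = 2.9e-04). The complement protease gene C1s1 went from 210.3 to 708 CPM in control 1 and from 429 to 1578 CPM in disease 4 and was at most 22.6 CPM in endothelium (3.47, SE 0.52, edgeR adjusted p = 3.0e-04). It rose in fibroblasts of 4 libraries and stood at 192 and 185 CPM in control 2. C3, the central complement component, gave 1.82 (SE 0.35, edgeR adjusted p = 0.0038), a call lost without disease 4 (edgeR adjusted p = 0.092). Fibronectin (Fn1) went up in fibroblasts of all libraries, for example from 185 to 649 CPM in disease 5, and down in endothelium, from 103 to 38.4 CPM there (2.13, SE 0.27, edgeR adjusted p = 3.9e-05). Reference endothelium also held the smooth muscle gene Tagln at 64.7 to 357 CPM and activated endothelium at 2.40 to 20.5 CPM. Fibroblast values of Tagln were 42.7 to 72.5 and 16.8 to 193 CPM, a difference of 5.21 (SE 0.43, edgeR adjusted p = 3.0e-08). Most of this difference lay in the endothelial cells.

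Among the genes with a more positive change in endothelium, Smox, an enzyme of polyamine breakdown, went from 54.1 to 94.2, 51.0 to 108, 43.7 to 92.0, 31.6 to 32.9 and 26.5 to 47.7 CPM in endothelium. In fibroblasts it went from 37.0 to 29.1, 38.2 to 26.4, 25.5 to 0, 16.7 to 8.69 and 20.2 to 17.1 CPM, up in endothelium and down in fibroblasts of every library (-1.41, SE 0.26, edgeR adjusted p = 0.0027). Dock9, an exchange factor of the small GTPase Cdc42, gave -1.30 (SE 0.22, edgeR adjusted p = 9.8e-04).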

How the data were processed

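Cells of 5 heart libraries were profiled by droplet single-cell RNA sequencing of transcript 5′ ends. As deposited, each matrix gives the unnormalized UMI count of a gene in a barcode. The file header that was read names Cell Ranger 3.1.0, and the version was not read from the headers of the other matrices. The submitters' processing notes name Cell Ranger 3, Seurat 3 and the builds mm10 and GRCh38. The members and gene lists were chosen with earlier results of these data known.

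Member and reference counts were added up within each library, and these sums entered edgeR 4.0.16 (quasi-likelihood, TMM, filterByExpr, the library as a block within libraries, Benjamini-Hochberg adjustment at 0.05, R 4.3.3). DESeq2 1.42.0 was an alternative. Cells were handled in Python 3.11.15, doublets with Scrublet in scanpy 1.11.5, which marked 1.32 to 4.12% of retained barcodes. Marked barcodes were kept and left out as an alternative. The edgeR tests were checked on simulated data, where the test of the genotype difference in the change missed most of the changed genes. Shares have 95% Wilson intervals. All 5 libraries hold 1 pool each, and the replicate number pairs the 2 states of a library.

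Named genes were, per list, up to 4 called genes with the largest log2 difference at a mean log2 CPM of at least 4 and up to 3 uncalled genes of highest level. Beyond the lists they were up to 12 rises and 8 falls per comparison at a log2 CPM of at least 5 with the same sign in every library. Of these, 76 of 503 gene and comparison pairs are described. B2m, Isg15, Icam1, Cxcl1, Il6 and the genes of the Cxcl10-only split were added after their values were seen.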

Additional observations from a re-analysis of the deposited data

Results flagged for a closer look

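The change from reference to activated fibroblasts differed between genotypes, by the test of that difference, in 9 genes. The 5 described above were Ly6c1 (1.11), Igfbp5 (-2.59), Inmt (-2.15), Apoe (-1.28) and Gsn (-0.60), each as disease minus control on the log2 scale. Members of control 2, 1 of the 2 control libraries, had no higher level of Psmb9 than their reference (27.3 against 31.8 CPM), and the part of this in the differences was not tested. Mesothelial, Schwann cell and T and natural killer cell genes had medians of -3.12, -4.85 and -1.55 in the same test, with 1 of 7, 0 of 4 and 1 of 14 passing in edgeR (6, 4 and 5 at an unadjusted p under 0.05, 0 of each in DESeq2). The mesothelial list was at 227 CPM in members of control 1 and 41.7 CPM in their reference, and at 0 to 29.9 CPM in members of the other libraries. In control 1, 1.85% of members had 3 or more UMIs of this list and 0.926% of the Schwann cell list. The part of mesothelial, Schwann, T and natural killer cells was not tested either.

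The same change differed between fibroblasts and endothelial cells in 222 genes. As fibroblast minus endothelial log2 change, the difference was 2.91 for Ifi47, 2.62 for H2-Q6, 1.75 for Rsad2, 1.64 for Ifit1 and 1.14 for H2-K1. It was 2.32 for Ccl2, 3.47 for C1s1, 1.82 for C3, 2.13 for Fn1 and 5.21 for Tagln, and -1.41 for Smox and -1.30 for Dock9. Activated endothelial cells had medians of 4125 to 5774 UMIs and reference endothelial cells of 2609 to 3233, both below those of fibroblasts of the same state and library. Mural cell genes summed to 893 to 2395 CPM in reference and 431 to 787 CPM in activated endothelium, and the part of these cells was not tested. With depth matched, 298 genes passed, 270 with a more positive change in fibroblasts and 28 in endothelium. Depth was matched between the states of a cell type only, so endothelial cells stayed shallower than fibroblasts. In control 1 the matched activated and reference medians were 4762 and 4664 UMIs in endothelium and 8685 and 8771 UMIs in fibroblasts.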

How the results depend on the processing

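The difference in share kept its sign under all alternatives run, from 1.51 to 11.5 points when 1 library was left out, and its exact permutation p ranged from 0.5 to 0.7 under the others. Members against reference gave 476 genes in DESeq2, 118 with no replicate block, 404 for members with Cxcl10 alone, 423 to 856 with 1 library left out and 983 without control 2 and disease 3. With every gene of at least 1 count 494 were higher and 502 lower, and the median of all genes moved from -0.03 to -0.20. Disease against control within members gave 874 with every gene, 236 in DESeq2, 300 at 10 or more gate UMIs, where control 2 and disease 3 dropped out, and 55 to 608 with 1 library left out. The genotype difference in the change gave 42 with every gene, 3 in DESeq2, 23 at 3 or more and 16 at 10 or more gate UMIs, 73 with 0 excluded UMIs, 3 at a mitochondrial limit of 5%, 17 with an unrestricted reference, 20 at a fibroblast sum of 20, 14 to 82 with 1 library left out and 55 without control 2 and disease 3. The Cxcl9 split gave 111 with every gene, 20 in DESeq2, 0 after depth matching (355 unadjusted), 0 to 111 with 1 library left out and 272 when split by Cxcl10 alone. Fibroblast against endothelial change gave 79 to 228 with 1 library left out. The cause of these shifts was not tested, except that fewer libraries or genes entered some fits. Of the genes picked by the naming rule, 5 of 133 in members against reference, 4 of 83 in the Cxcl9 split and 6 of 116 in fibroblast against endothelial change turned direction in at least 1 alternative. Those genes were left undescribed for that reason, so that the described genes kept their direction by choice. Where 1 library of a genotype remained, it was assumed to vary like the others.

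No paired analysis was possible between the genotypes because the control libraries (1 and 2) and the disease libraries (3, 4 and 5) share no number. Control 2 and disease 3 held 142860 and 119331 member UMIs, against 975585 to 3311664 in the other libraries, which limits every value there. Alternatives with a fibroblast sum of 20, with Cxcl10 alone and without control 2 and disease 3 were chosen after seeing the data.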
